A study of Mus musculus with 6 samples.

Results

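The genes described here are 9 genes of epithelial cell junctions in mouse embryonic stem cells: the claudins Cldn3, Cldn4, Cldn6, Cldn7 and Cldn9, the tight junction genes Ocln and Tjp1, and the adhesion genes Cdh1 and Epcam. They are 9 of 19938 named genes, and were chosen by gene symbol, with earlier results of these data known, the log2 differences between the groups included. Their counts beside those of all genes are therefore a description. Each was read from the probe set, the group of array probes summarised as a single value, that the platform annotation gives to that gene alone. Where a gene has several such probe sets the rule takes the one with the highest mean over all 6 arrays, but each of these 9 genes had 1.

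In 3 arrays Tdg had been knocked down in E14, an embryonic stem cell line of the mouse, and 3 further arrays held control E14. The protein, thymine DNA glycosylase, cuts oxidised forms of methylated cytosine out of DNA so that repair can put cytosine in their place, and the series is about that oxidation. Both groups were grown on 0.1% gelatin in 15% serum with leukemia inhibitory factor at 1000 units/ml, and per the labels' protocols received lentivirus (multiplicity of infection 10), with puromycin selection at 2 ug/ml from 48 h. The labels name neither the control vector nor the vectors against Tdg. Nor do they speak of separate cultures, so p-values measure only how far these arrays spread, which may be technical.

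Tight junctions seal neighbouring epithelial cells together at their apical ends. Claudins are small membrane proteins with 4 membrane-spanning segments that form the sealing strands and set which ions and molecules pass between cells, occludin is a further strand protein, and the scaffold ZO-1, the product of Tjp1, ties the strands to actin. Below them E-cadherin, the product of Cdh1, forms the adherens junction. Mouse embryonic stem cells grow as compact colonies held together by E-cadherin, and Epcam is a surface adhesion protein of epithelial and embryonic stem cells.

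Values are log2 signals, so that a difference of 1 is a doubling of signal, and as deposited have nearly equal array medians, 7.41 to 7.48. Beyond a check of marker genes, signals of different probe sets are not compared with each other. The RNA extraction text mentions Kdm2b in place of Tdg, so the targeted gene was read first. Tdg signal, the mean of 4 probe sets that the annotation shares with the pseudogene Tdg-ps2, was 8.24, 8.16 and 7.92 in knockdown arrays, against 11.12, 11.20 and 11.10 in control arrays. That left 12.2% of the control level (limma adjusted p 8.79e-05, and 0.1 by exact permutation, the smallest that 3 arrays against 3 allow). Knockdown replicate 3 stood apart from the other arrays on the first principal component, at 31.0 against -17.5 to 5.17. All 10 embryonic stem cell markers on a list made as a check, among them Pou5f1, Nanog and Sox2, lay in the top 20% of named genes by mean signal. Limma called 0 of them (0 also at an unadjusted p under 0.05). The smallest p-values among them were those of Klf2 (0.12, limma adjusted p 0.489) and Lin28a (0.09, 0.634).

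Cldn7 and Cldn6 were lower in Tdg knockdown cells, and no junction gene of the 9 was called higher. The threshold was a limma adjusted p of 0.05, with Benjamini-Hochberg adjustment over all 19938 genes. The 2 calls among 9 genes stand beside 0.552% of all genes called lower and 0.241% called higher. All 9 differences lay below 0, with a median of -0.15, while the median over all genes was 0.02 and 43.5% of genes lay below 0. In 5 of the 9 genes the groups did not overlap, each time with the knockdown arrays lower, beside 19.0% of all genes whose groups did not overlap in either direction. With the knockdown arrays lower, this was so of 2188 of the 19938 genes. An unadjusted p under 0.05 was found for 3 of the 9, all lower, beside 12.5% of all genes in either direction, 7.48% lower and 5.03% higher.

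**Figure D1:**
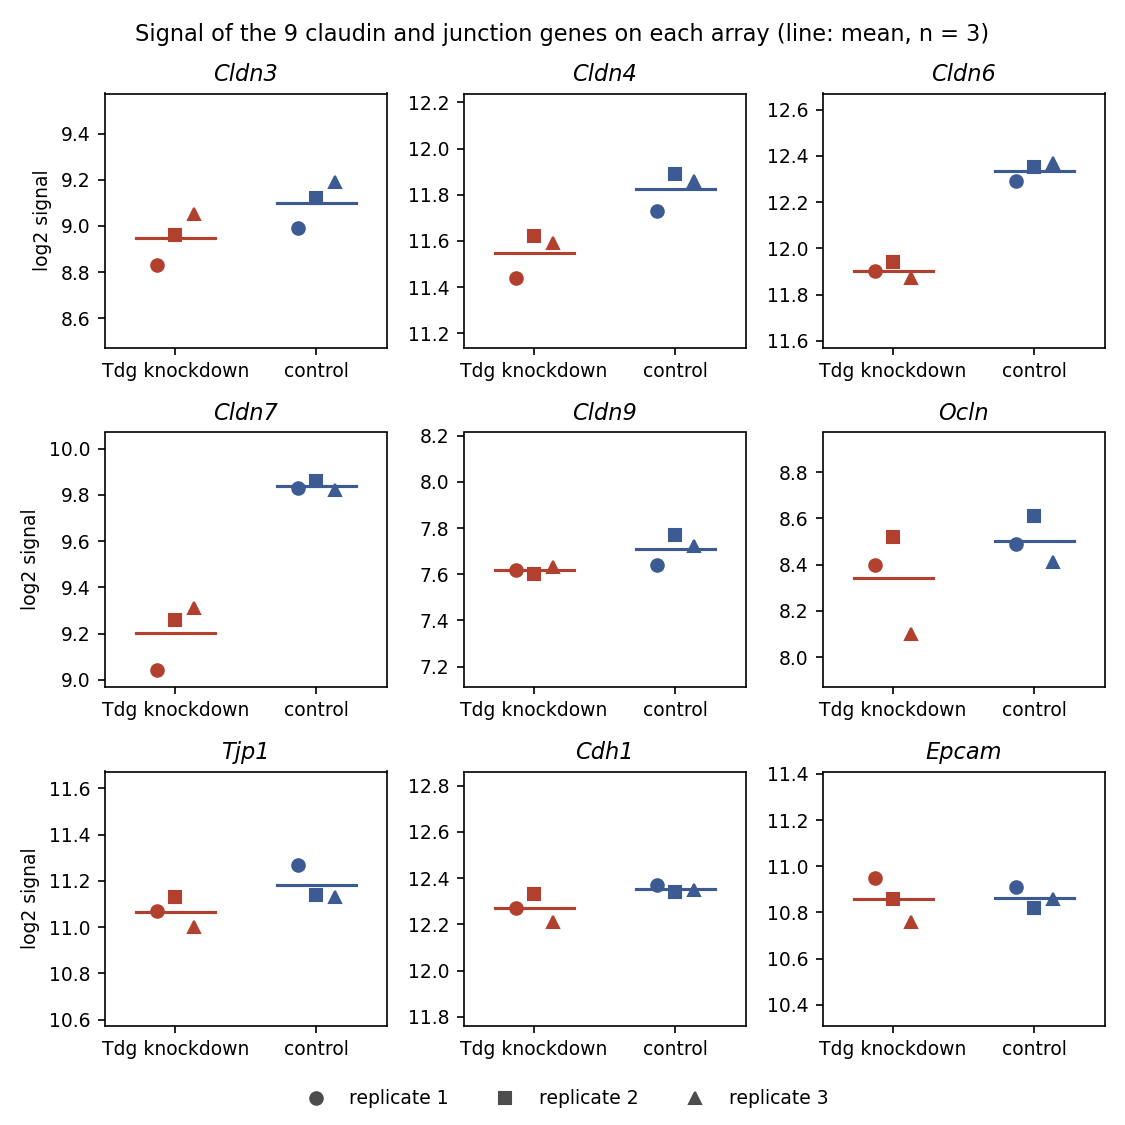
Log2 signal of each of the 9 genes on each array, with Tdg knockdown arrays on the left and control arrays on the right; shapes mark the replicate number, lines the group means, and every panel spans the same height on the log2 scale. The groups of Cldn7 and Cldn6 are 0.51 and 0.35 apart at their nearest arrays, while those of Epcam, Tjp1, Cldn3 and Ocln overlap.

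Cldn7 is a claudin of simple epithelia that lies along the lateral membrane as well as in tight junctions, where it binds Epcam. Its log2 signal was 9.04, 9.26 and 9.31 in knockdown arrays, against 9.83, 9.86 and 9.82 in control arrays. The lowest value was that of knockdown replicate 1, and the control arrays lay within 0.04 of each other. The groups averaged 9.20 ± 0.14 in knockdown cells and 9.84 ± 0.02 in control cells (SD, n = 3 each). The difference was -0.63 (SE 0.08, limma adjusted p 0.0318), which is 64.5% of the control signal.

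Cldn6 is a claudin of embryonic epithelia and of pluripotent cells. Its log2 signal was 11.90, 11.94 and 11.87 in knockdown arrays, against 12.29, 12.35 and 12.37 in control arrays. The arrays of each group lay close together: the groups averaged 11.90 ± 0.04 in knockdown cells and 12.34 ± 0.04 in control cells (SD, n = 3 each). The difference was -0.43 (SE 0.06, limma adjusted p 0.0336), or 74.1% of the control signal.

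Both calls depended on which arrays were used. Leaving out any array other than knockdown replicate 3 ended them (adjusted p 0.0921 to 0.208 for Cldn7 and 0.0921 to 0.234 for Cldn6), although the differences stayed between -0.66 and -0.55 for Cldn7 and between -0.46 and -0.42 for Cldn6. Without knockdown replicate 3 both were called (adjusted p 0.0172 and 0.0328). They were also kept with the replicate number as a block, as if equal numbers were pairs (0.0216 and 0.0259). Quantile normalization ended the call of Cldn7 (adjusted p 0.0551) and centring the arrays on their medians ended that of Cldn6 (0.0555).

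**Figure D2:**
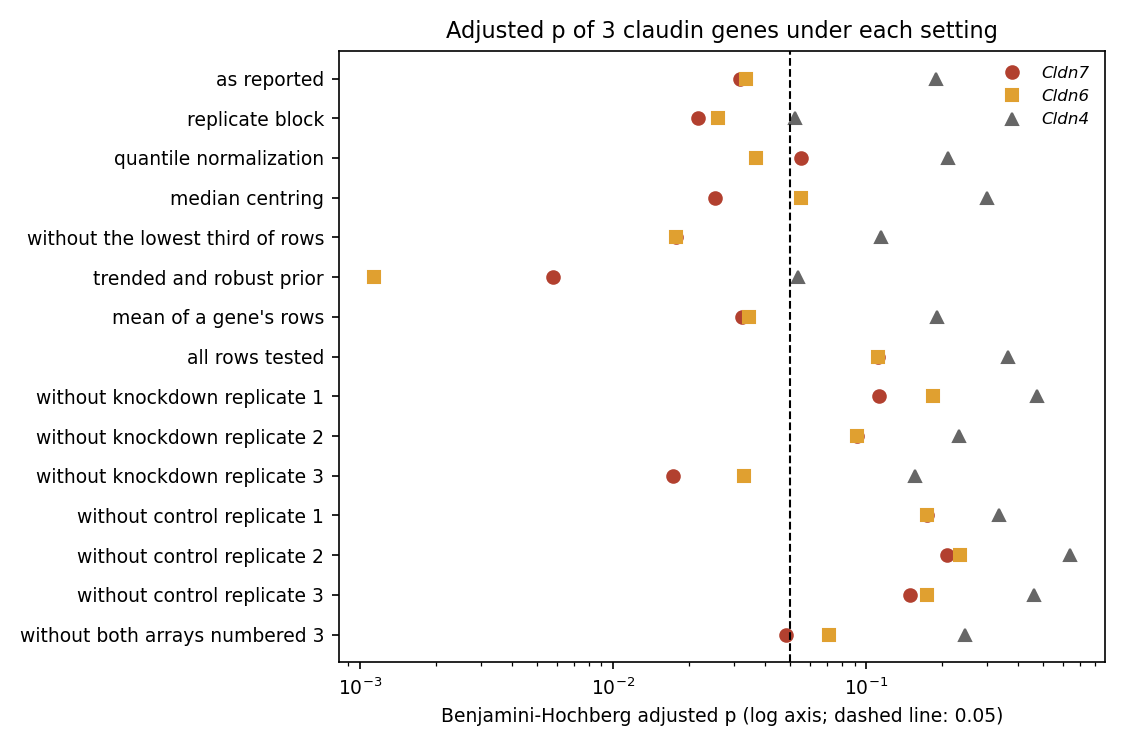
Benjamini-Hochberg adjusted p of Cldn7, Cldn6 and Cldn4 on a log axis, under the reported model and 14 other settings, with a dashed line at 0.05. Cldn7 and Cldn6 stand left of the line under the replicate block (0.0216 and 0.0259) and right of it without control replicate 2 (0.208 and 0.234), and Cldn4 stands right of it throughout.

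The sequences upstream of Cldn7, Cldn6 and Epcam are shown because the claudins are the genes that fell, and Epcam is the binding partner of Cldn7 whose groups overlapped. Each is the 250 bases before the first RefSeq start in GRCm38.p6, written 5′ to 3′ on the gene's strand, with capitals for any match, on either strand, to 3 short motifs.
Cldn7, chr11:69964529-69964778, + strand: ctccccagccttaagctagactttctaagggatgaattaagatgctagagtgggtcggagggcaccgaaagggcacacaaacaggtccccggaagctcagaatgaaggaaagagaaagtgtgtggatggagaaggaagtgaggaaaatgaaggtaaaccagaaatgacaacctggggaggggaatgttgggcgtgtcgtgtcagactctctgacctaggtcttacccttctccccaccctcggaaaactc
Cldn6, chr17:23679115-23679364, + strand: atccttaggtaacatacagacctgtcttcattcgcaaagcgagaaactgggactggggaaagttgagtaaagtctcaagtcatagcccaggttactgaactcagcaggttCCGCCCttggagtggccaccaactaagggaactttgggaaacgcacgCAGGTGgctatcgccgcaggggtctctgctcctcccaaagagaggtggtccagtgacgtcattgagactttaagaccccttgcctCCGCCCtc
Epcam, chr17:87635729-87635978, + strand: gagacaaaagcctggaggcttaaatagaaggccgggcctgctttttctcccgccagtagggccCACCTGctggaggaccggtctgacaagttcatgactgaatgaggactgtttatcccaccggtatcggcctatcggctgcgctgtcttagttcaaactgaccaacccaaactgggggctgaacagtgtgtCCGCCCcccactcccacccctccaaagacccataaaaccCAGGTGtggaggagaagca

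The motifs were CAGGTG, the E-box bound by the Snail and Zeb repressors of epithelial genes, then GGGCGG, the GC box bound by Sp1, and TATAAA, the TATA box. They do not overlap each other in these windows. The Cldn7 window held none of the 3, the Cldn6 window 1 CAGGTG and 2 GGGCGG, and the Epcam window 2 CAGGTG and 1 GGGCGG. Over the 32851 windows of the same length in the table, 17.2% held CAGGTG, 32.7% GGGCGG and 12.4% TATAAA. CG dinucleotides, the sites where cytosine is methylated and oxidised, numbered 6 in the Cldn7 window, 9 in that of Cldn6 and 8 in that of Epcam, against a median of 6 over all windows. RefSeq promoters were matched for 7 of the 9 genes, Cldn9 and Cdh1 being the others. A later Cldn7 start had 2 CAGGTG, 1 GGGCGG and 10 CG dinucleotides. The other windows ranged from 7 CG dinucleotides at Cldn4 and 9 at Cldn3 to 22 at Tjp1 and at the later start of Ocln. A match describes letters only, and no binding or methylation was measured on these arrays.

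Cldn4 and Cldn3 are neighbouring genes on chromosome 5 and encode closely related claudins that act as receptors of a Clostridium enterotoxin. Cldn4 signal was 11.44, 11.62 and 11.59 in knockdown arrays, against 11.73, 11.89 and 11.86 in control arrays. The groups did not overlap, but the difference of -0.28 (SE 0.08) did not pass (limma adjusted p 0.188, and 0.0522 with the replicate number as a block). Cldn3 signal was 8.83, 8.96 and 9.05 in knockdown arrays, against 8.99, 9.12 and 9.19 in control arrays. Its groups overlapped, with a difference of -0.15 (95% interval -0.35 to 0.05, adjusted p 0.549). In both genes replicate 1 was the lowest array of its group.

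Cldn9 lies next to Cldn6 on chromosome 17 and is best known for its role in the inner ear. Its signal was 7.62, 7.60 and 7.63 in knockdown arrays, against 7.64, 7.77 and 7.72 in control arrays. The groups were 0.01 apart at their nearest arrays, and the difference was -0.09 (95% interval -0.24 to 0.05, limma adjusted p 0.635). The neighbours Cldn6 and Cldn9 thus had differences of -0.43 and -0.09. Taken within each array, the difference of Cldn6 departed from that of Cldn9 by -0.34, and that of Cldn4 from that of Cldn3 by -0.12. The exact permutation p was 0.1 for each, also after adjustment over 6 such gene pairs, all chosen after their values were seen; this is the smallest p that 3 arrays against 3 can give, so these differences between genes could not pass.

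Occludin and ZO-1 stand at the strands and beneath them. Ocln signal was 8.40, 8.52 and 8.10 in knockdown arrays, against 8.49, 8.61 and 8.41 in control arrays. Knockdown replicate 3 was the lowest array, and the difference was -0.16 (95% interval -0.44 to 0.11, limma adjusted p 0.661), or -0.04 without that array. Tjp1 signal was 11.07, 11.13 and 11 in knockdown arrays, against 11.27, 11.14 and 11.13 in control arrays. The groups met at 11.13, and the difference was -0.11 (95% interval -0.28 to 0.05, adjusted p 0.606).

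The adhesion genes Cdh1 and Epcam had differences nearer to 0. Cdh1 signal was 12.27, 12.33 and 12.21 in knockdown arrays, against 12.37, 12.34 and 12.35 in control arrays. The groups were 0.01 apart and the difference was -0.08 (95% interval -0.23 to 0.06, limma adjusted p 0.674). Epcam signal was 10.95, 10.86 and 10.76 in knockdown arrays, against 10.91, 10.82 and 10.86 in control arrays. Its groups overlapped, and the difference of -0.01 had a 95% interval of -0.17 to 0.16 (adjusted p 0.98). Within each array the difference of Cldn7 departed from that of its binding partner Epcam by -0.63, and from that of Cldn6 by -0.20 (exact permutation p 0.1 for each, and 0.1 over the 6 pairs).

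**Figure D3:**
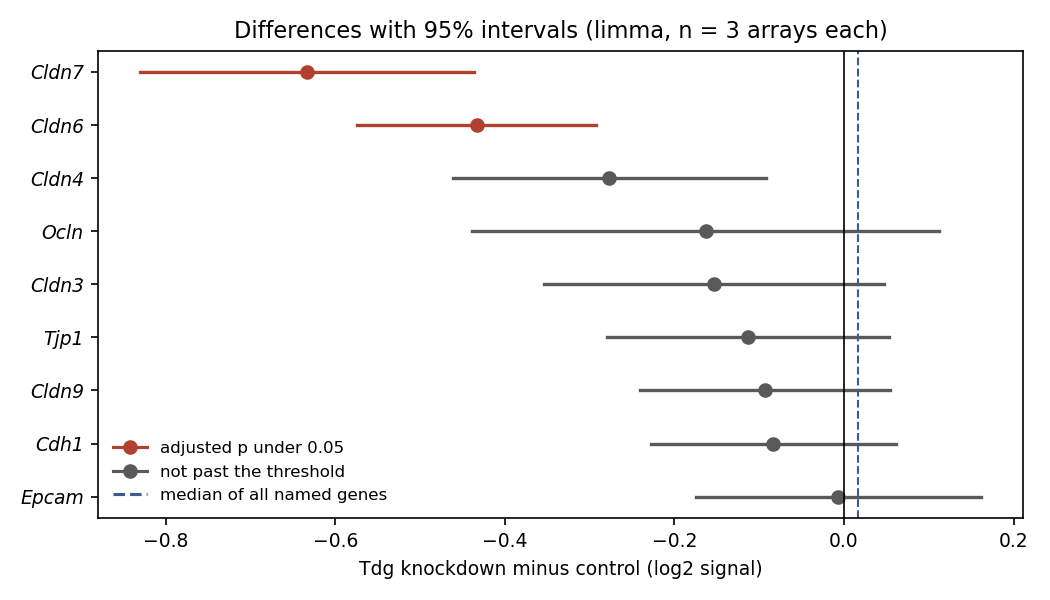
Tdg knockdown minus control in log2 signal for the 9 genes, with 95% intervals from limma (n = 3 arrays each) and a dashed line at the median of all named genes, 0.02. The intervals of Cldn7, Cldn6 and Cldn4 lie below 0, and those of the other 6 genes include 0.

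In whole-culture RNA, fewer cells of a type and less RNA per cell cannot be told apart. Markers of other epithelial cell types were therefore set beside the claudins, and their part in the result was not tested. The summed signal of 9 trophoblast markers was 2559 to 2719 in knockdown arrays, against 2924 to 3172 in control arrays, on the linear scale. Krt19, a keratin of simple epithelia and trophoblast, was the only one of them called (-0.83, limma adjusted p 0.0288), while Cdx2, a defining trophoblast factor, showed 0.02. An unadjusted p under 0.05 was found for 2 of the 9 with a negative difference, Krt19 and the keratin gene Krt7 (-0.19, adjusted p 0.225), and for 1 with a positive difference, the transcription factor gene Hand1 (0.32, 0.311). The groups did not overlap in any of these 3 of the 9 markers, beside 19.0% of all genes. Over all genes 0.552% were called lower, and an unadjusted p under 0.05 was found for 7.48% lower and 5.03% higher. Without Krt19, a step chosen after its values were seen, the sums overlapped at 2151 to 2264 in knockdown arrays and 2247 to 2340 in control arrays. Krt19 had the lowest difference of the 9 markers, so leaving it out narrows the gap by construction. The 12 markers of endoderm summed to 2427 to 2523 in knockdown arrays, against 2680 to 2858 in control arrays, with 0 called by limma, 2 at an unadjusted p under 0.05 and 0 with the replicate block. Those 2, both with a negative difference beside 7.48% of all genes, were the endocytic adaptor gene Dab2 (-0.30, limma adjusted p 0.196) and the endocytic receptor gene Cubn (-0.20, 0.263). In both the knockdown arrays lay below all control arrays. Averaging all probe sets of Dab2 instead gave -0.035 (limma adjusted p 0.891). The median difference of the 12 was 0.08, and 4 lay below 0. The knockdown arrays lay below all control arrays in 3 of the 12, beside 2188 of the 19938 genes, and above them in 1, beside 1592. Without Lrp2, a further endocytic receptor gene chosen after its values were seen (-0.41, adjusted p 0.407), the endoderm sums overlapped at 1625 to 1822 in knockdown arrays and 1623 to 1767 in control arrays. Lrp2 likewise had the lowest difference of its list, so this step too narrows the gap by construction. No marker can be called absent from a log2 signal: Cdx2 averaged 6.68 in knockdown and 6.66 in control arrays, and Gata6, a defining endoderm factor, 7.64 in knockdown and 7.53 in control arrays. The 12 fibroblast markers overlapped between the groups, at 2029 to 2464 in knockdown arrays and 2064 to 2367 in control arrays. Limma called 0 of them. With a negative difference, beside 7.48% of all genes, 1 had an unadjusted p under 0.05, the receptor gene Pdgfrb (-0.26, limma adjusted p 0.143). The next smallest p was that of Fbln2 (-0.08, 0.734).

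No further claudin was called. Of 21 further measured genes of the family list, which holds the claudin-domain genes Cldnd1 and Cldnd2 and, under its present symbol Tmem114, the gene once named Cldn26, limma called 0, with 2 at an unadjusted p under 0.05, Cldn1 with a negative and Cldn15 with a positive difference. That count of 2 stands beside 12.5% of all genes in either direction. The median difference of the 21 genes was 0.04, beside 0.02 over all genes. Cldn1, the claudin of the skin barrier, showed -0.46 (limma adjusted p 0.136), with 6.54, 6.50 and 6.13 in knockdown arrays, against 6.84, 6.89 and 6.82 in control arrays. Cldn15, which forms sodium channels in the intestine, showed 0.21 (0.38) and Cldn24 0.27 (0.539), the highest of the family. Differences of Cldn12 (-0.05), Cldnd1 (-0.07), Cldn10 (-0.05) and the endothelial claudin Cldn5 (0.09) were small. The other 14 lay between 0.00 and 0.16: Cldn2, Cldn8, Cldn11, Cldn13, Cldn14, Cldn16, Cldn17, Cldn18, Cldn19, Cldn20, Cldn22, Cldn23, Cldnd2 and Tmem114. Their signal was not tested against background.

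Among 24 genes of tight junction strands and scaffolds, Ocln and Tjp1 included, 1 fell and 23 did not pass, beside 0.552% of all genes called lower. Their median was -0.14 and 17 of them lay below 0. An unadjusted p under 0.05 was found for 9 of the 24, all with negative differences, beside 7.48% of all genes. Knockdown arrays lay below all control arrays in 12 of the 24, beside 2188 of the 19938 genes, and above them in 1, beside 1592. The gene that fell was Amotl2, an angiomotin-like scaffold that links junctions to actin and to YAP. Its signal was 9.28, 9.42 and 9.27 in knockdown arrays, against 9.80, 9.78 and 9.84 in control arrays (difference -0.48, SE 0.07, limma adjusted p 0.034). With the replicate block 3 of the 24 were called, all lower, beside 2.01% of all genes. These were Amotl2 with Amotl1 (-0.35, adjusted p 0.0839, blocked 0.0438) and Marveld2, the tricellulin of contacts where several cells meet (-0.39, 0.222, blocked 0.0355). Tjp3, a paralog of Tjp1, showed -0.17 (0.299), and Marveld3, a relative of occludin, -0.19 (0.346).

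The polarity complexes that place the tight junction held 0 called genes of 19 in limma, with 5 at an unadjusted p under 0.05, all with negative differences (7.48% of all genes), and a median of -0.05. Patj, a scaffold of the Crumbs complex, showed -0.39 (limma adjusted p 0.0985) and Crb3, the epithelial Crumbs protein, -0.35 (0.0985). Both were called lower with the replicate block (0.0292 and 0.0355), beside 2.01% of all genes. Patj signal was 8.10, 8.04 and 7.90 in knockdown arrays, against 8.50, 8.40 and 8.30 in control arrays. Crb3 signal was 8.45, 8.58 and 8.63 in knockdown arrays, against 8.84, 8.89 and 8.99 in control arrays. Neither gene's groups overlapped. Knockdown arrays lay below all control arrays in 6 of the 19, beside 2188 of the 19938 genes, and above them in 0, beside 1592.

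The cadherins of the adherens junction lay on both sides of 0. Of 19 adherens junction genes limma called 0, with a median of -0.06. An unadjusted p under 0.05 was found for 4 with negative differences, beside 7.48% of all genes, and 1 with a positive difference, beside 5.03%. Knockdown arrays lay below all control arrays in 5 of the 19, beside 2188 of the 19938 genes, and above them in 2, beside 1592. Cdh2, N-cadherin, the cadherin of neural and mesenchymal cells, had 8.80, 8.88 and 8.72 in knockdown arrays, against 8.27, 8.45 and 8.39 in control arrays. The difference was 0.43 (SE 0.08, limma adjusted p 0.0624), and it was called higher with the replicate block (0.0325) and without knockdown replicate 3 (0.0391). Cdh3, P-cadherin, which lies beside Cdh1 in the genome, had 10.35, 10.42 and 10.33 in knockdown arrays, against 10.62, 10.68 and 10.68 in control arrays (-0.29, adjusted p 0.0919, blocked 0.0508). Relative to Cdh1 within each array, Cdh2 departed by 0.51 and Cdh3 by -0.21 (exact permutation p 0.1 each, and 0.1 over the 6 pairs).

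Desmosomes anchor keratin filaments at cell contacts. Of 12 desmosome genes limma called 0, with 4 at an unadjusted p under 0.05, all with negative differences (7.48% of all genes), and a median of -0.08. Knockdown arrays lay below all control arrays in 6 of the 12, beside 2188 of the 19938 genes, and above them in 0, beside 1592. Dsp, the plaque protein desmoplakin, had 9.48, 9.58 and 9.35 in knockdown arrays, against 10.01, 9.87 and 9.93 in control arrays (-0.47, limma adjusted p 0.0575). The desmosomal cadherin gene Dsg2 showed -0.31 (0.0816). With the replicate block 3 genes were called lower, beside 2.01% of all genes. These were Dsp (0.0368), Dsg2 (0.0395) and the desmocollin gene Dsc2 (-0.45, adjusted p 0.119, blocked 0.0329), which was picked for its values. Of 10 gap junction genes, with a median of 0.05, limma called 0. Their knockdown arrays lay below all control arrays in 1 of the 10 and above them in 0. Beside 7.48% of all genes, 1 of the 10 had an unadjusted p under 0.05 with a negative difference. That was Gja1, a main connexin of embryonic stem cells, at -0.36 (limma adjusted p 0.061, blocked 0.0364), while Gjb5 showed 0.13 (0.687).

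Among 22 regulators and partners of epithelial junctions 1 fell and 21 did not pass, beside 0.552% of all genes called lower. Their median was -0.08. At an unadjusted p under 0.05 there were 6 with negative differences, beside 7.48% of all genes, and 1 with a positive difference, beside 5.03%. St14 encodes matriptase, a membrane protease that can cleave Epcam and acts with prostasin, the product of Prss8. St14 signal was 10.69, 10.77 and 10.85 in knockdown arrays, against 11.16, 11.19 and 11.27 in control arrays (-0.44, SE 0.07, limma adjusted p 0.0486). Quantile normalization (adjusted p 0.0742) and median centring (0.0605) ended this call. With the replicate block 4 of the 22 were called, all lower, beside 2.01% of all genes. These were St14, Prss8 (-0.41, adjusted p 0.0864, blocked 0.0305) and the simple-epithelial keratins Krt8 (-0.38, 0.15, blocked 0.0329) and Krt18 (-0.32, 0.0815, blocked 0.0445), the last 3 named after their values were seen. The gene with a positive difference at an unadjusted p under 0.05 was Ovol1 (0.26, limma adjusted p 0.128), named after its values were seen. Knockdown arrays lay below all control arrays in 7 of the 22, beside 2188 of the 19938 genes, and above them in 3, beside 1592. The epithelial transcription factor gene Grhl2 showed -0.08 (limma adjusted p 0.74).

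A list of 18 genes of epithelial-mesenchymal transition and mesenchymal cells was examined because several repress claudins and Cdh1. Its median was 0.03. Beside 0.552% of all genes called lower, 1 of the 18 fell. That was Tagln, an actin-binding protein of smooth muscle and fibroblasts (-0.88, SE 0.12, limma adjusted p 0.0318). With the replicate block Cdh2 and Vim, the intermediate filament vimentin (0.30, adjusted p 0.0751, blocked 0.0437, named after its values were seen), were called higher as well. These 2 stand beside 1.07% of all genes called higher with the block, and Tagln, still called lower, beside 2.01%. The repressor genes had no call: Snai1 showed 0.26 (limma adjusted p 0.354), Snai2 0.00 (0.99), Zeb1 0.19 (0.317) and Zeb2 0.10 (0.632), named after their values were seen. The unadjusted p was 0.0358 for Snai1 and 0.0285 for Zeb1, and in both the knockdown arrays lay above all control arrays. Of the 18 genes, 4 with positive differences had an unadjusted p under 0.05, beside 5.03% of all genes, and 2 with negative differences, beside 7.48%. Knockdown arrays lay above all control arrays in 5 of the 18, beside 1592 of the 19938 genes, and below them in 2, beside 2188.

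**Figure D4:**
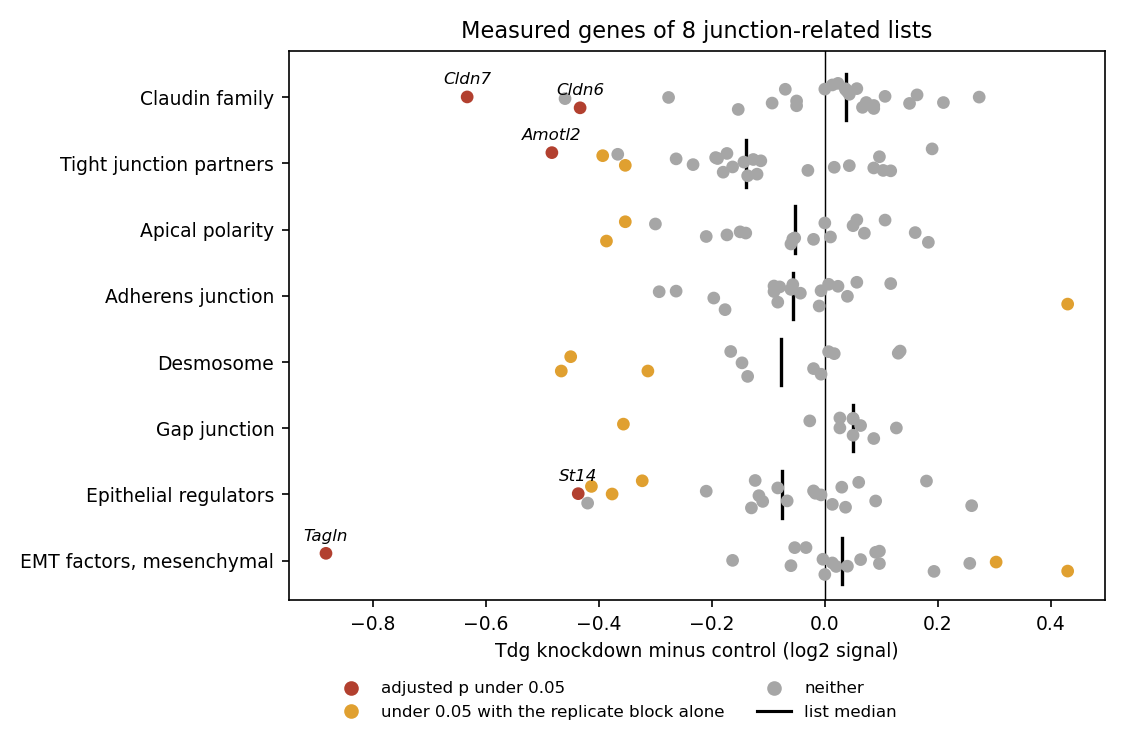
Tdg knockdown minus control in log2 signal for each measured gene of 8 lists, a point per gene with list medians as black bars; red points were called by limma, orange ones with the replicate block alone. Beside Cldn7 and Cldn6 the called genes are Amotl2, St14 and Tagln, all lower, and the tight junction list has the lowest median, -0.14.

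Over the 8 lists and without the 9 genes themselves, 140 genes were measured, of which 3 fell and 0 rose. That is 2.14%, beside 0.792% of all genes. With the replicate block 14 were lower, beside 2.01% of all genes, and 2 higher, beside 1.07%. Together these are 11.4% of the 140, beside 3.08% of all genes. The lists were chosen with earlier results of these data known, so these shares are a description. The block treats equal replicate numbers as pairs, which the labels do not state. The median of the 140 was -0.01. The calls of Amotl2, St14 and Tagln were lost without any array other than knockdown replicate 3 (adjusted p up to 0.219, 0.255 and 0.192), as was that of the marker Krt19 (up to 0.192).

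Genes next to the claudins were read from their order in the RefSeq table of GRCm38.p6. Limma called 0 of the 18 nearest measured genes (3 on each side of each claudin, members left out), beside 0.792% of all genes. Their median was -0.03. Ybx2, Mettl27 and Hcfc1r1 had an unadjusted limma p under 0.05 (0.0047, 0.0155 and 0.0448), all with negative differences, beside 7.48% of all genes. In these the knockdown arrays lay below all control arrays, beside 2188 of the 19938 genes. In Gabarap they lay above them, beside 1592. Beside Cldn7, Ybx2 showed -0.28 (limma adjusted p 0.138), Slc2a4 -0.13, Eif5a -0.04, Elp5 0.05, Ctdnep1 0.06 and Gabarap 0.06. Around Cldn6 and Cldn9, Tnfrsf12a showed -0.20, Hcfc1r1 -0.17, Thoc6 0.03, 1520401A03Rik 0.06, Pkmyt1 -0.11 and Paqr4 -0.18. Around Cldn4 and Cldn3, Mettl27 showed -0.24 (0.243), Abhd11 -0.13, Stx1a -0.01, Tmem270 0.07, Wbscr25 0.13 and the claudin gene Cldn13 0.15.

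The genes closest to Cldn6 and Cldn7 over the 6 arrays were found by the root mean square difference between their log2 signals, each centred on its own mean. Closest to Cldn6 were Lrp11 (0.017), the lipase gene Abhd4 (0.0238), the matrix metalloproteinase gene Mmp2 (0.0285), the oocyte gene Khdc3 (0.0289) and the sperm-egg fusion gene Izumo1 (0.0294). Closest to Cldn7 were Ly6g6e (0.0465), the apoptosis gene Pawr (0.0596), the serine protease gene Prss23 (0.0616), the actin-binding calponin gene Cnn1 (0.0682) and the growth factor gene Bmp7 (0.0768). This likeness describes 6 arrays in 2 groups, and follows mainly from a similar difference between them.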

How the data were processed

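RNA of 6 arrays, 3 of Tdg knockdown and 3 of control E14 cells, was measured on Affymetrix whole-transcript arrays. The authors deposited a log2 signal for each probe set of each array. Per the submitters' processing notes the software was Affymetrix Expression Console; its version, summarisation and normalization are not stated, and the log2 scale was read from the range of the values. The number of arrays limits the precision, and signal over background was not analysed.

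Of 35557 rows, the platform annotation lists 1 gene for 21789, several for 1621 and none for 12147; 21698 matched the RefSeq table by gene identifier, and the row with the highest mean left 19938 named genes. Groups were compared with limma 3.58.1 in R 4.3.3 (lmFit, eBayes, two-sided; Benjamini-Hochberg over all named genes, threshold 0.05). Exact two-sided permutation tests were run only for the Tdg mean and for the differences within the 6 gene pairs. Of 206 list entries 193 were measured.

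The 9 genes and all lists were chosen with earlier results of these data known. Beyond the 9 genes, the text names Tdg, other claudins and paralogs of the 9, up to 4 called genes of each list and direction (or the 2 with the smallest p), 3 neighbours on each side of a claudin and the 5 closest profiles of each called gene. Outside this rule, Pou5f1, Nanog, Sox2, Cdx2, Krt7, Hand1, Gata6, Lrp2, Amotl1, Dsc2, Prss8, Krt8, Krt18, Ovol1, Grhl2, Vim, Snai1, Snai2, Zeb1 and Zeb2 were named after their values were seen.

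No label says what equal replicate numbers share. Deviations of same-numbered arrays from their group means correlated at 0.61, 0.23 and 0.70 over genes. Each exceeds 0.1, the criterion for also fitting the replicate number as a block, though with so few arrays this does not establish pairs. The reported model held no block, so its p-values, errors and intervals ignore any pairing. Blocked values are given where they change a call.

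The 14 alternatives were the replicate block, 2 normalizations, a filter on rows of low mean signal (under 6.38), a trended and robust prior, the mean of a gene's rows, all rows, each array left out, and both arrays numbered 3 left out. In 5 simulated comparisons of 19938 genes limma found 24.6% of the genes set to change by 0.4 (log2) and 72.6% of those set to change by 0.8, and 3.76% of its calls were false.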

Additional observations from a re-analysis of the deposited data

How the results depend on the processing

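The 2 calls among the 9 genes, Cldn7 and Cldn6, held with the replicate block, with the filter on dim rows, with a trended and robust prior, with the mean of a gene's rows and without knockdown replicate 3. With quantile normalization, with median centring and without both arrays numbered 3 the count was 1, with all rows tested it was 0 (3 at an unadjusted p under 0.05), and with single arrays left out it ran from 0 to 2. The median of the 9 differences was -0.12 with quantile normalization, -0.105 without both arrays numbered 3, and -0.17 to -0.10 with single arrays left out, all below 0. Over all genes limma called 614 with the replicate block, 351 of 14800 with that filter, 446 with the trended and robust prior and 17 with all rows, against 158, and 0 to 290 with single arrays left out; it was 0 on leaving out knockdown replicate 1 (1959 genes at an unadjusted p under 0.05), control replicate 1 (1682) or control replicate 2 (1510). Among the 140 further list genes, 3 were called in the reported model, 16 with the block, 5 with quantile normalization, 11 of the 118 that the filter kept, 15 with the trended prior, 0 with all rows, 0 without both arrays numbered 3 and 0 to 4 with single arrays left out. The causes were not tested. Epcam turned above 0 with quantile normalization (0.0039) and without both arrays numbered 3 (0.040), and leaving out single arrays gave -0.053 to 0.042, above 0 when that array was knockdown replicate 3 or control replicate 1 (0.017). None of these passed the threshold. Of 378 refits of 27 named genes, these 4 were the only reversals; 45 lost a call and 20 gained one. Among the 9 genes and the lists, the replicate block changed no call beyond those given in the text. The Tdg decrease was called in each of its 8 refits, at -3.10 to -2.94 with single arrays left out.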
